A study of Mus musculus with 6 samples.

Results

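The 26S proteasome was followed at the transcript level in 3T3-L1 cells, a mouse embryonic fibroblast line used as preadipocytes, that were exposed or not exposed to human umbilical cord mesenchymal stem cells. Its genes were taken as the protein-coding rows of the deposited expression table whose symbols name a proteasome subunit, assembly chaperone, activator or inhibitor (Psma, Psmb, Psmc, Psmd, Psme, Psmf and Psmg with a number), leaving out the inducible catalytic subunits Psmb8, Psmb9 and Psmb10. This gave 46 genes of the 21436 genes listed, chosen by symbol and not by any measured value. All 46 passed the filter on low values (FPKM, fragments scaled by gene length and library size, averaging 1 or more across the 6 libraries), as did 10055 genes in all.

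The study asked how the stem cells affect preadipocyte differentiation. In the co-culture group (3 libraries), 3T3-L1 cells shared medium for 72 h with the stem cells across a membrane with 0.4 µm pores, and in the alone group (3 libraries) they were cultured without them. Both groups were wild type, of embryonic origin per the labels, and received the same adipogenic medium: 2 µM rosiglitazone, 1 µM dexamethasone, 0.5 mM IBMX, 10 mg/L insulin and 10% serum. The cells are 1 established line, and nothing in the labels says whether the 3 libraries of a group came from separate cultures, so the spread behind every p-value is that of these libraries only and may be technical.

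The proteasome degrades proteins tagged with ubiquitin chains. Its 20S core is a barrel of alpha rings, which gate the entry, around beta rings, which carry the proteolytic sites of Psmb5, Psmb6 and Psmb7. A 19S cap recognises the chain, removes it (lid) and unfolds the substrate with a ring of ATPases (base). Dedicated chaperones assemble core and cap, and alternative activators can dock on the core in place of the cap. In mammalian cells the transcription factor Nfe2l1 raises proteasome genes together when proteasome activity is low, through antioxidant response elements in their promoters.

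Depth was similar in the groups: the libraries held 29603755 to 37612585 reads in co-culture and 36119750 to 38357563 alone. The preadipocyte and fibroblast markers (7 of 7 listed) summed to 2097 to 2143 FPKM in co-culture and 1962 to 1968 FPKM alone. Among them Thy1 went the other way, with means of 90.7 FPKM in co-culture and 105 FPKM alone. The adipocyte markers (9 of 9 listed) summed to 242 to 253 FPKM in co-culture and 271 to 291 FPKM alone, nearly all of it Lpl and Fabp4. These differed in direction: Lpl averaged 190 FPKM in co-culture and 226 FPKM alone, and Fabp4 58.2 FPKM in co-culture and 53.4 FPKM alone. Adipoq, the adipocyte hormone adiponectin, had 0 reads in each co-culture library and at most 1 read in an alone library, and Plin1, a lipid droplet coat protein, had at most 5 reads in any library. Macrophage markers summed to 3.59 to 3.96 FPKM in co-culture and 3.20 to 4.13 FPKM alone, nearly all Cd68, with Ptprc at 0 to 5 reads. Of the endothelial and epithelial lists, 2 of 3 genes each were listed, and neither list passed 0.1 FPKM in sum in any library. Blood genes (4 of 4 listed) summed to 3.71 to 17.8 FPKM in co-culture and 16.5 to 30.1 FPKM alone, with Hba-a1, Hbb-bs and S100a9 at 0 in co-culture 1. The part of these cell type markers in the results that follow was not tested, and in such bulk libraries fewer cells of a type and less RNA per cell cannot be told apart.

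Proteasome transcripts were abundant and unequal. On the FPKM scale, which divides by gene length, mean levels over the 6 libraries ran from 5.1 FPKM for Psmc3ip to 254.9 FPKM for Psmb1, a core beta subunit, a 50.1-fold range. Psmc3ip entered by symbol alone, and the lowest of the other genes was the chaperone Psmd9 at 7.43 FPKM. Subunits present in equal number in the particle differed within each ring: alpha subunits spanned 32.6 FPKM (Psma3) to 142.6 FPKM (Psma6), and beta subunits spanned 41.3 FPKM (Psmb5) to 254.9 FPKM (Psmb1). The 6 ATPases of the base were the closest in level, between 50.9 and 79.8 FPKM. The gene with the fewest reads, Psmg3, had 180 reads in its lowest library. At 500 or more reads in every library stood 42 of the 46 genes. Exon sequence was shared with another gene of GENCODE vM21 in 14 of the 46. With the strand setting of the counting unknown here, reads of such neighbours may enter these values.

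**Figure D1:**
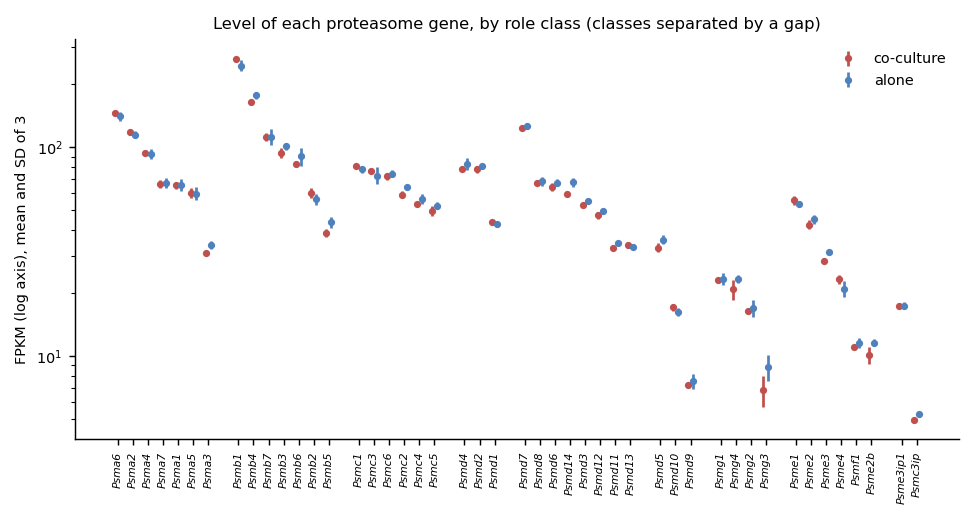
FPKM (log axis) of each of the 46 proteasome genes, with mean and SD of the 3 co-culture libraries left of the mean and SD of the 3 alone libraries; genes are ordered by level within their role. Pairs of points nearly coincide for most genes, from Psmb1 at the top to Psmc3ip at the bottom.

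Most proteasome genes did not pass the test. By limma on log2(FPKM + 1) with Benjamini-Hochberg adjustment over 10055 genes, 6 of the 46 genes fell in co-culture (13.0%) at an adjusted p below 0.05, beside 17.9% of all tested genes, and 0 rose, beside 13.9% of all tested genes. At an unadjusted p below 0.05 there were 12 lower (26.1%) and 2 higher genes (4.35%, Psmb1 and Psme4), beside 23.1% and 19.3% of all tested genes, and voom on recovered reads called 6 lower, among them Psma3 in place of Psme2b, and 1 higher (Psme4), beside 18.9% and 15.0% of all tested genes. In the reported fit the share of genes called lower was thus below that of the whole table, while it lay above it at an unadjusted p below 0.05.

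The differences were small throughout. The median log2 change of the 46 genes was -0.05, against -0.0037 over all tested genes, and the single changes ran from -0.33 to 0.15. Below 0 were 32 of the 46 genes (69.6%), beside 50.9% of all tested genes. For 44 of the 46, the 95% interval of the log2 change lay between -0.32 and 0.32. The exceptions were Psmg3 and Psme2b. All 3 co-culture values lay below all 3 alone values for 13 genes, where 24.8% of all tested genes did so, and for no gene did they lie above, where 21.3% of all tested genes did so. The median coefficient of variation between libraries of a group was 3.22% in co-culture and 4.67% alone.

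**Figure D2:**
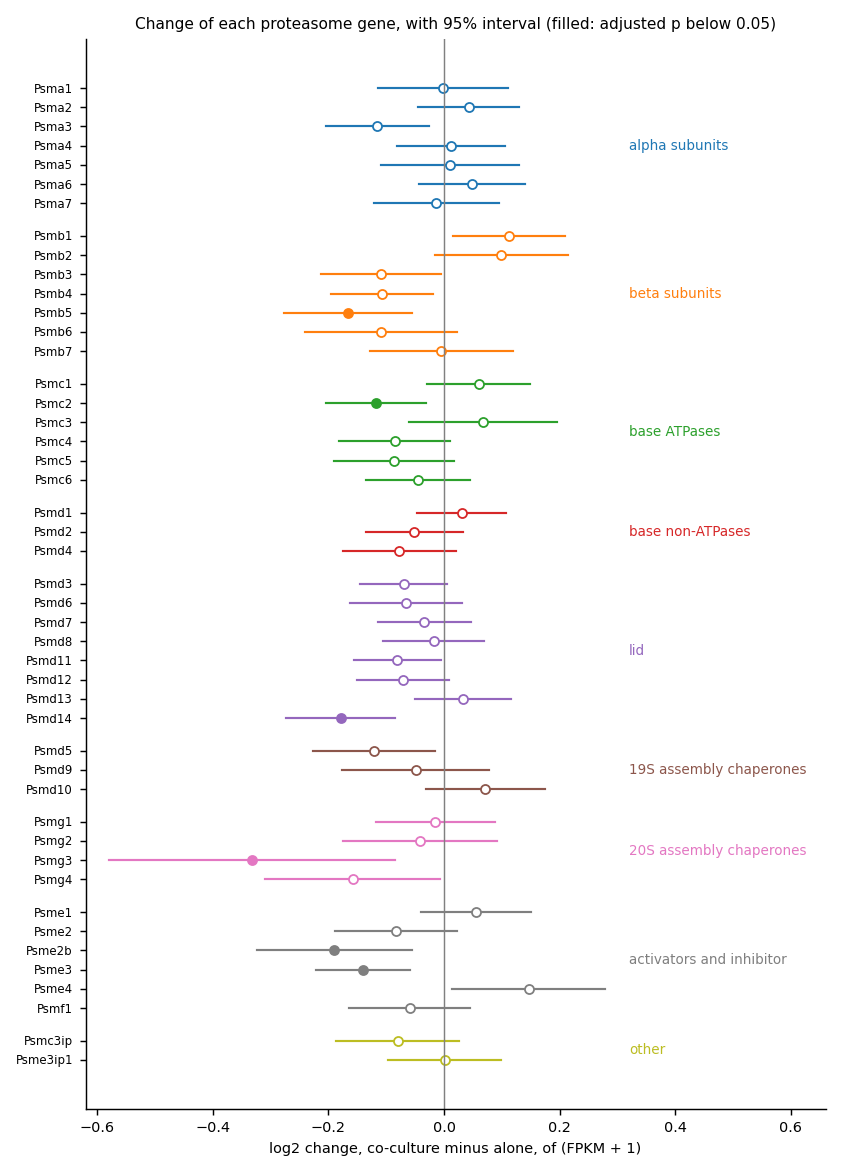
Log2 change (co-culture minus alone) of each of the 46 genes with its 95% interval, by role, on the log2(FPKM + 1) scale; filled points are the 6 genes with an adjusted p below 0.05. The filled points all lie left of 0, between -0.33 and -0.12, and most open intervals cross 0.

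The promoters of these genes were searched for the letters that Nfe2l1 and NF-Y are known to bind. RefSeq windows of 250 bases before to 50 after the start (GRCm38.p6) were matched by symbol for 39 of the 46 genes, and were searched on both strands for the antioxidant response element core TGACNNNGC (GCNNNGTCA on the other strand) and for the box bound by NF-Y, which reads CCAAT on one strand and, on the opposite one, ATTGG. The core was present in 6 of 39 genes (15.4%), beside 16.8% of 8150 tested genes with a window. It lay in the windows of Psmb5, Psmb6, Psmc6, Psmd12, Psmd9 and Psme4, of which Psmb5 alone fell. CCAAT was present in 14 of 39 (35.9%), beside 43.8% of tested genes, and in the windows of Psmc2, Psmd14 and Psme3 among the 6 genes that fell. A match describes the letters only. The windows below show the core in the catalytic subunits Psmb5 (chr14:54617946-54618245, minus strand) and Psmb6 (chr11:70525107-70525406, plus strand) and in Psme4 (chr11:30771525-30771824, plus strand), whose log2 changes differ in sign, and for contrast Psmd14 (chr2:61711444-61711743, plus strand), which has no core. Capitals mark the core or the CCAAT box, and in Psmd14 a CCAAT and an ATTGG overlap.
Psmb5: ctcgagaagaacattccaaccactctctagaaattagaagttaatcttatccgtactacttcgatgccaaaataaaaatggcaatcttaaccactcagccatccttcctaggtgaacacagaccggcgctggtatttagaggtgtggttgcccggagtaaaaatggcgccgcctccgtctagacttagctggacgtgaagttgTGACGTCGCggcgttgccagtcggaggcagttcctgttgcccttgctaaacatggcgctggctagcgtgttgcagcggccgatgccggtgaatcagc
Psmb6: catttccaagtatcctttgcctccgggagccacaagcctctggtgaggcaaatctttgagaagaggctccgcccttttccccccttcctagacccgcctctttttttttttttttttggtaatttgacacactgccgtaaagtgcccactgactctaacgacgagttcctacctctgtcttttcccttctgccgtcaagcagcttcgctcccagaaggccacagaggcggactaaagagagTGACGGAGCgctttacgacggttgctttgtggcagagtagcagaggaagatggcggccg
Psme4: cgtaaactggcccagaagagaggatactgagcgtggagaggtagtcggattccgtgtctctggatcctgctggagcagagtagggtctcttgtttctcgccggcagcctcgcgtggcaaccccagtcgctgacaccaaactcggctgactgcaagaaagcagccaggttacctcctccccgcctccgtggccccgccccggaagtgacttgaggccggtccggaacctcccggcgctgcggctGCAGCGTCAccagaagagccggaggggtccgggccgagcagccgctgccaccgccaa
Psmd14: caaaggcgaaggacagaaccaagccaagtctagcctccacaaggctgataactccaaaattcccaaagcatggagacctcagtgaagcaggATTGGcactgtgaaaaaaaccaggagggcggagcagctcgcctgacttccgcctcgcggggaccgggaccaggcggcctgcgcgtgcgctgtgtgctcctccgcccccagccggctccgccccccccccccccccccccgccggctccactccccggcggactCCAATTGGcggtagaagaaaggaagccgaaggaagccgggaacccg
Psmb5 and Psmb6 share the core and the catalytic role, and their log2 changes were -0.17 and -0.11. Psmd12, Psmd9 and Psmc6, which also hold the core, had -0.071, -0.049 and -0.044. Psme4, with the core at a similar distance from its start as Psmb6, had 0.15, the only positive change among the 6. Only the change of Psmb5 passed the test. Of all 46 genes, with or without the core, 32 (69.6%) lay below 0. Whether the core goes with the direction of change was not tested.

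Among the alpha subunits, 0 of 7 were called by limma, with 1 at an unadjusted p below 0.05 (Psma3, which voom called lower) and a median log2 change of 0.01, which was -0.042 to 0.057 without single libraries. Psma6, the most abundant of the ring, stood at 142, 146 and 146 FPKM in the 3 co-culture libraries, against 148, 134 and 138 FPKM in the 3 alone libraries. The groups overlapped, and its log2 change was 0.05 with a limma adjusted p of 0.407. Psma3 had 31.6, 30.6 and 31.5 FPKM in co-culture and 35.3, 32.4 and 34.1 FPKM alone, groups that did not overlap, with a log2 change of -0.12 and a limma adjusted p of 0.0509. The summed FPKM of the 7 alpha genes was 583, 569.9 and 587 in co-culture and 607, 547 and 569 alone.

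Of the 7 beta subunits, 1 fell and none rose by limma, with a median log2 change of -0.11. Without alone 1, 2 rose (Psmb1 and Psmb2), none fell and the median was -0.029. Psmb5 (chr14:54614120-54617995) is the subunit with chymotrypsin-like activity and the main target of proteasome inhibitor drugs. Coordinates of genes are those of RefSeq on GRCm38.p6. Psmb5 stood at 40.3, 36.9 and 39.2 FPKM in the 3 co-culture libraries, against 46.5, 41.1 and 43.4 FPKM in the 3 alone libraries. Every co-culture library was below every alone library. Its means were 38.8 ± 1.73 FPKM in co-culture and 43.7 ± 2.72 FPKM alone (SD, n = 3 each), 1.13-fold lower, a log2 change of -0.17 (SE 0.050, limma adjusted p = 0.0282); without alone 1 the adjusted p was 0.0747, without alone 3 it was 0.0617, without co-culture 2 it was 0.0993, and without co-culture 3 it was 0.0639. Its exons also hold the microRNA gene Mir686 on the same strand. The other catalytic subunits did not pass: Psmb6, which cuts after acidic residues, had a log2 change of -0.11 (limma adjusted p = 0.191). Psmb7, which cuts after basic residues, had a log2 change of -0.0044 (limma adjusted p = 0.959).

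Psmb1, a structural beta subunit and the most abundant proteasome transcript, ran the other way with 266, 261 and 267 FPKM in co-culture and 262, 238 and 235 FPKM alone. Only alone 1 reached the co-culture values. Its log2 change was 0.11 with a limma adjusted p of 0.0750; without alone 1 it was called higher, at an adjusted p of 0.00278. Psmb5 and Psmb1 thus lay at opposite ends of the ring both in level and in log2 change.

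The inducible catalytic subunits, which replace Psmb6, Psmb7 and Psmb5 in the immunoproteasome and were left out by the symbol rule, were low in both groups. Psmb8 had 2.82, 4.09 and 3.70 FPKM in co-culture and 3.10, 3.96 and 3.54 FPKM alone, with a limma adjusted p of 0.970. Psmb9 had 1.43, 0.982 and 1.496 FPKM in co-culture and 1.12, 1.40 and 1.03 FPKM alone, with a limma adjusted p of 0.598. Neither showed a group apart from the other. Psmb10 had 7.58, 9.38 and 8.02 FPKM in the 3 co-culture libraries, against 7.54, 6.91 and 6.71 FPKM in the 3 alone libraries, and co-culture was higher in 3 of 3 libraries than every alone library. Its log2 change was 0.21 (limma adjusted p = 0.0473), and the call was lost by voom and without alone 2, alone 3, co-culture 2 or co-culture 3; without co-culture 2 the log2 change was 0.13. As a percentage of the constitutive partner's FPKM, Psmb8 over Psmb5 was 6.67 to 11.1% across the 6 libraries, Psmb9 over Psmb6 1.11 to 1.79%, and Psmb10 over Psmb7 6.13 to 8.52%.

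In the base of the 19S cap, 1 of 6 ATPases and 0 of 3 non-ATPases fell by limma; of the non-ATPases none had an unadjusted p below 0.05 and voom called none. Psmc2 (chr5:21785275-21803787), the ATPase Rpt1, stood at 56.4, 60.6 and 60.6 FPKM in the 3 co-culture libraries, against 65.4, 62.7 and 64.7 FPKM in the 3 alone libraries. The groups did not overlap, though the gap between the highest co-culture and the lowest alone library was narrow. Its means were 59.2 ± 2.40 FPKM in co-culture and 64.3 ± 1.38 FPKM alone (SD, n = 3 each), with a log2 change of -0.12 (SE 0.039, limma adjusted p = 0.0410). Whichever library was left out, this call was lost, with an adjusted p of 0.0501 to 0.171.

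Psmc1, the most abundant ATPase (Rpt2), had 78.8, 82.4 and 83.1 FPKM in co-culture and 81.5, 74.7 and 78.2 FPKM alone, with a limma adjusted p of 0.286. Psmd4, an intrinsic ubiquitin receptor, had 79.4, 77.0 and 79.0 FPKM in co-culture and 88.8, 79.0 and 81 FPKM alone, with a limma adjusted p of 0.213. In both genes the groups overlapped. The remaining base genes, the scaffold subunits Psmd1 and Psmd2 and the ATPases Psmc3 to Psmc6, had log2 changes between -0.09 (Psmc5) and 0.07 (Psmc3).

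The lid held the gene with the smallest adjusted p. Psmd14 (chr2:61711694-61800376), the deubiquitinase Rpn11 that cuts the ubiquitin chain from the substrate, stood at 58.6, 61.1 and 59.1 FPKM in the 3 co-culture libraries, against 71.0, 63.8 and 68.2 FPKM in the 3 alone libraries. All co-culture libraries lay below all alone libraries. Its means were 59.6 ± 1.34 FPKM in co-culture and 67.7 ± 3.62 FPKM alone (SD, n = 3 each), 1.14-fold lower, a log2 change of -0.18 (SE 0.043, limma adjusted p = 0.00980). Of the 46 genes it was the only one with an adjusted p below 0.01, and its call held without any 1 library but not with no filter on low values (adjusted p = 0.0559). The other 7 lid genes did not pass, with log2 changes between -0.0808 and 0.0328. Psmd7, the catalytically inactive partner of Psmd14 and the most abundant lid gene, had 125, 121 and 126 FPKM in co-culture and 129, 122 and 129 FPKM alone, overlapping groups and a limma adjusted p of 0.512. The summed FPKM of the 8 lid genes was 480.4, 480.7 and 483 in co-culture and 514, 494 and 499.99 alone, so the summed levels did not overlap, while the alpha, beta and ATPase sums did.

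Of the chaperones that assemble the base (Psmd5, Psmd9 and Psmd10), 0 of 3 were called by limma, with 1 at an unadjusted p below 0.05 (Psmd5) and none by voom. Psmd5 had 31.9, 32.2 and 34.9 FPKM in co-culture and 37.0, 33.9 and 37.1 FPKM alone, with a log2 change of -0.12 and a limma adjusted p of 0.0786. Among the 4 chaperones of the core, 1 fell. Psmg3 (chr5:139823613-139826894), the chaperone PAC3 that guides alpha ring assembly, stood at 7.41, 5.49 and 7.63 FPKM in the 3 co-culture libraries, against 10.3, 7.91 and 8.32 FPKM in the 3 alone libraries. It had the widest spread of the 46 genes, with a coefficient of variation of 17.1% in co-culture and 14.6% alone, and the groups nevertheless did not overlap. Its means were 6.84 ± 1.17 FPKM in co-culture and 8.85 ± 1.29 FPKM alone (SD, n = 3 each), 1.29-fold lower, a log2 change of -0.33 (SE 0.11, limma adjusted p = 0.0435). Without alone 1 the adjusted p was 0.144, without alone 3 it was 0.0625 and without co-culture 2 it was 0.134, with a log2 change of -0.20 in the last of these. Psmg3 also shares 280 bp of exon on the same strand with Gm26938 in GENCODE vM21, so its reads may be divided between the genes. Psmg1, the chaperone PAC1 and the most abundant of the 4, had 23.3, 23.0 and 22.9 FPKM in co-culture and 25.1, 22.8 and 22.3 FPKM alone and a limma adjusted p of 0.827.

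In the class of 6 genes that holds the activators and the inhibitor Psmf1, 2 fell by limma (33.3%, beside 17.9% of all tested genes). Both were of the PA28 family, and none rose, beside 13.9% of all tested genes. By voom, Psme3 alone was lower and Psme4 was higher. Psme3 (chr11:101316213-101323537), the nuclear activator PA28 gamma, which promotes degradation without ubiquitin, stood at 29.1, 28.9 and 27.6 FPKM in the 3 co-culture libraries, against 31.2, 32.1 and 31.4 FPKM in the 3 alone libraries. The groups were well apart relative to their spread. Its means were 28.5 ± 0.806 FPKM in co-culture and 31.5 ± 0.472 FPKM alone (SD, n = 3 each), 1.11-fold lower, a log2 change of -0.14 (SE 0.037, limma adjusted p = 0.0157); without alone 2 the adjusted p was 0.0568 and without co-culture 3 it was 0.0708. Psme2b (chr11:48945345-48946410), an intronless copy of the PA28 beta gene Psme2, stood at 9.19, 11.02 and 9.95 FPKM in the 3 co-culture libraries, against 11.3, 12.02 and 11.5 FPKM in the 3 alone libraries. Its groups did not overlap, with a log2 change of -0.19 (SE 0.060, limma adjusted p = 0.0355). Because Psme2 and Psme2b are nearly identical in sequence, how reads were shared between them is uncertain, and without alone 2, alone 3, co-culture 1 or co-culture 3 the adjusted p of Psme2b was 0.0712 to 0.128. Psme2 was not called, with means of 42.5 FPKM in co-culture and 45.1 FPKM alone and overlapping groups. Its log2 change was -0.083 (limma adjusted p = 0.215).

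Psme1, PA28 alpha and the most abundant activator, had 53.3, 54.7 and 58.6 FPKM in co-culture and 55.2, 51.7 and 53.4 FPKM alone, with a limma adjusted p of 0.361. Psme4, the activator PA200 linked to histone degradation, had 24.3, 23.6 and 22.1 FPKM in co-culture and 19.03, 21.5 and 22.5 FPKM alone. It had the highest positive log2 change of the 46, 0.15, with a limma adjusted p of 0.0864; without alone 3 it was called higher. A pair of genes entered by symbol alone: Psmc3ip, a cofactor of meiotic recombination, and Psme3ip1, a partner of PA28 gamma, neither called, nor by voom, nor at an unadjusted p below 0.05.

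**Figure D3:**
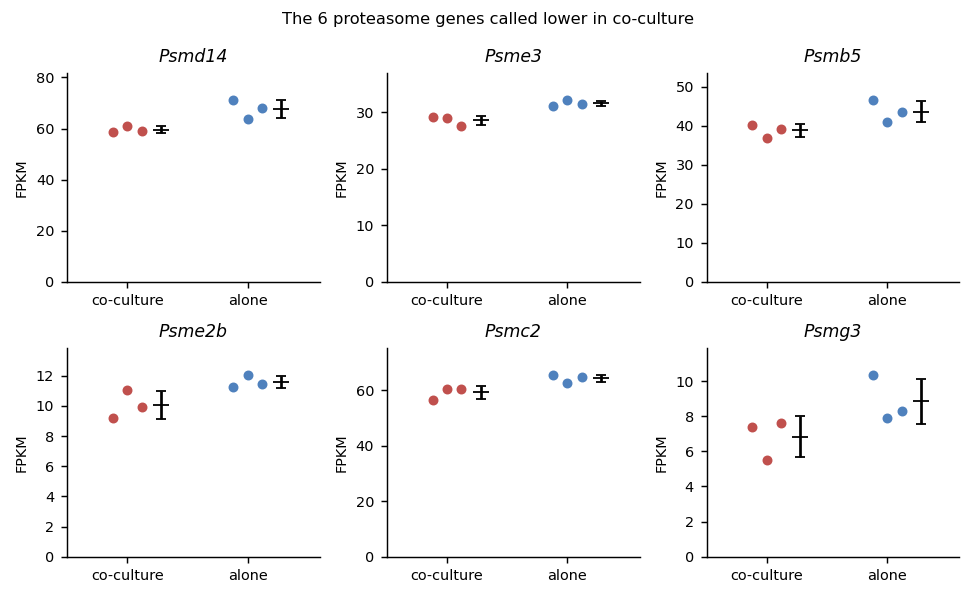
FPKM of the 6 proteasome genes with an adjusted p below 0.05, 1 point per library, with co-culture left of alone and bars for mean and SD (n = 3). In each panel the 3 co-culture points lie below the 3 alone points, by 1.09-fold (Psmc2) to 1.29-fold (Psmg3) between the means.

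The alone libraries differed among themselves in these genes. Alone 1 was the highest of the 6 libraries for 28 of the 46 genes, whereas it was the highest for 20.9% of all tested genes, and it was the highest alone library for 35 of 46. Measured from the alone mean, the median log2 deviation of the 46 genes was -0.035, -0.066 and -0.036 in co-culture and 0.056, -0.055 and -0.0074 alone. All tested genes had medians between -0.006 and 0.002 in the same libraries. Co-culture 1 and 3 thus lay above alone 2, and the group medians overlapped.

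Leaving out alone 1 gave 3 lower genes (Psmd14, Psme2b and Psme3), beside 17.4% of all tested genes, and 3 higher genes (Psmb1, Psmb2 and Psmc3), beside 14.2%. Without it, 25 of the 46 genes lay below 0, and their median log2 change was -0.0242. Leaving out alone 2 gave 6 lower and 0 higher genes (background 14.0% and 10.0%). These were Psma3, Psmb4, Psmb5, Psmd14, Psmd5 and Psmg3, so the calls of Psmc2, Psme2b and Psme3 were lost. Leaving out alone 3 gave 2 lower genes (Psmd14 and Psme3) and 1 higher gene (Psme4), beside 14.4% and 10.5%. Without co-culture 1 there were 5 lower genes (Psmb5, Psmd14, Psme3, Psmg3 and Psmg4) and 0 higher genes (background 13.7% and 9.66%). Without co-culture 2 there were 3 lower (Psmd14, Psme2b and Psme3) and 0 higher (background 14.9% and 10.7%). Without co-culture 3 there were 3 lower (Psmd14, Psmd5 and Psmg3) and 0 higher (background 14.0% and 9.15%). Psmd14 fell in each of these fits, and a gene was called higher only without alone 1 or alone 3.

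How the values were scaled and filtered moved the counts as well. With quantile scaling 2 genes fell (Psmd14 and Psme3) and 3 rose (Psma2, Psma6 and Psmb1), beside 15.9% and 16.5% of all tested genes. With TPM scaling 8 fell (17.4%) and 1 rose (Psmb1), beside 15.6% and 11.6%. Array weights, which let a deviating library count for less, gave 5 lower and 1 higher gene (Psmb1), beside 19.5% and 15.9%. With no filter on low values only Psme3 fell and none rose, beside 5.84% and 4.37% of all 21436 genes, and with no variance trend 3 fell (Psmd14, Psme2b and Psme3) and none rose, beside 17.2% and 13.2%.

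**Figure D4:**
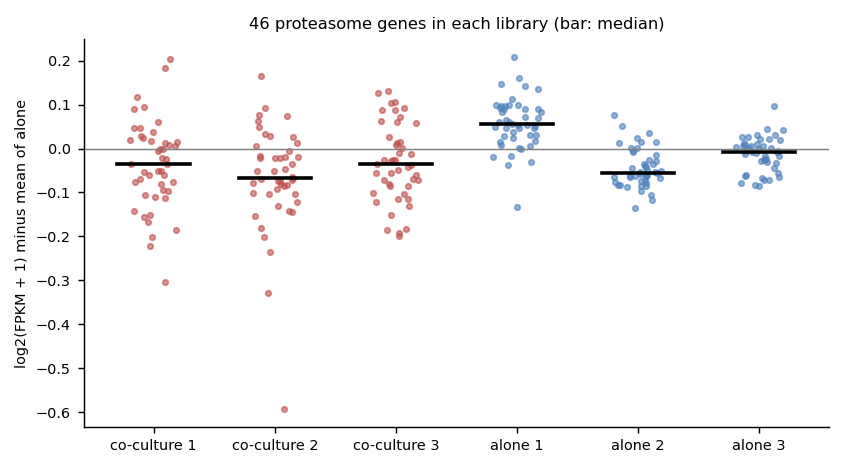
Deviation of each of the 46 genes from its alone mean, on the log2(FPKM + 1) scale, in each library; bars are medians. The median of alone 1 (0.056) lies above all others, and that of alone 2 (-0.055) below co-culture 1 and 3.

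Genes that control proteasome transcription included several that fell clearly, Nfe2l1 and Nfe2l2 among them. Of 16 tested genes on this list, 9 fell (56.3%, beside 17.9% of all tested genes) and 0 rose by limma, with none higher at an unadjusted p below 0.05 or by voom, and the median log2 change was -0.15. The list pools transcription factors with genes that handle Nfe2l1, and Sel1l and Syvn1 are among the 9. Below 0 were 12 of the 16. Uncalled and above 0 were Fbxw7 (0.13), Btrc (0.081), Hcfc1 (0.081) and Ddi2 (0.054). For Fbxw7 every co-culture library lay above every alone library. Nfe2l1, the factor described above, stood at 88.4, 92.1 and 87.6 FPKM in the 3 co-culture libraries, against 105, 110.0 and 107 FPKM in the 3 alone libraries. The groups were far apart. Its means were 89.4 ± 2.41 FPKM in co-culture and 107 ± 2.62 FPKM alone (SD, n = 3 each), 1.199-fold lower, a log2 change of -0.26 (SE 0.036, limma adjusted p = 4.36e-04). Nfe2l2, the related oxidative stress factor Nrf2, stood at 59.1, 58.8 and 59.2 FPKM in the 3 co-culture libraries, against 90.5, 87.9 and 89.5 FPKM in the 3 alone libraries. Its mean was 1.51-fold lower, a log2 change of -0.59 (SE 0.032, limma adjusted p = 1.07e-06), the most negative of the list on the log2(FPKM + 1) scale.

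The small Maf proteins, which pair with both factors on DNA, fell as well by limma. Mafk had a log2 change of -0.38, Mafg of -0.26 and Maff of -0.25, with limma adjusted p values of 0.00170, 0.00191 and 0.0468 in that order. Mafk was low in level, with means of 1.04 FPKM in co-culture and 1.66 FPKM alone, 1.597-fold lower. The call of Maff was lost without any 1 library other than co-culture 2 (adjusted p = 0.0677 to 0.139), with no filter (0.210) and with no variance trend (0.0581). Sel1l, which with the ligase Syvn1 handles Nfe2l1 at the endoplasmic reticulum, stood at 31.5, 32.0 and 31.2 FPKM in the 3 co-culture libraries, against 35.9, 38.0 and 39.4 FPKM in the 3 alone libraries, a log2 change of -0.25 (limma adjusted p = 0.00124). Syvn1 fell by less, with a log2 change of -0.18 (limma adjusted p = 0.0106). The NF-Y subunits Nfya and Nfyb had log2 changes of -0.16 and -0.15, with limma adjusted p values of 0.0196 and 0.0408. The remaining NF-Y subunit, Nfyc, was not called, with a log2 change of -0.060 (limma adjusted p = 0.619) and overlapping groups. The call of Nfya was lost without alone 2 (limma adjusted p = 0.0550) or co-culture 1 (0.0822). That of Nfyb was lost without alone 2, alone 3, co-culture 2 or co-culture 3 (0.0880 to 0.142). It was also lost with TPM (0.0692) and quantile scaling (0.0795), and neither call held with no filter. Neither Ddi2, the protease that cuts Nfe2l1, nor Ngly1, which removes its sugars, was called. Without alone 2, and with no filter on low values, 6 genes of this list fell in place of 9.

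Of 10 tested proteasome genes whose symbols do not begin with Psm, 3 fell and 0 rose by limma, beside 17.9% and 13.9% of all tested genes, with none higher at an unadjusted p below 0.05 or by voom. Adrm1, the ubiquitin receptor Rpn13, stood at 43.8, 43.9 and 44.1 FPKM in the 3 co-culture libraries, against 49.2, 48.0 and 52.4 FPKM in the 3 alone libraries. Co-culture values were within 1 FPKM of each other and below every alone value. Its log2 change was -0.18 (SE 0.039, limma adjusted p = 0.00623). Usp14, a deubiquitinase that trims chains at the cap, had 11.9, 12.01 and 12.5 FPKM in co-culture and 14.4, 13.1 and 14.4 FPKM alone, a log2 change of -0.19 (limma adjusted p = 0.0141). Akirin2, which brings proteasomes into the nucleus, had a log2 change of -0.15 (limma adjusted p = 0.0488). That call was lost by voom (0.0625) and without any 1 library other than alone 2 (0.0554 to 0.138), and without alone 1 the log2 change was -0.09. Pomp, the chaperone of core maturation, had 88.5, 88.0 and 92.7 FPKM in co-culture and 96.4, 78.4 and 84.6 FPKM alone, with a limma adjusted p of 0.514. As with Psmb1, alone 1 was the high library, and without it Pomp was called higher at an adjusted p of 0.0323, so that this list then held 2 higher genes (Pomp and Sem1). Without alone 3, Adrm1 was the only gene of the list that fell.

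Of 10 genes reported here that encode or load ubiquitin, 1 fell and 0 rose by limma, beside 17.9% and 13.9% of all tested genes, with none higher at an unadjusted p below 0.05 or by voom. Ube2d2a, a ubiquitin-conjugating enzyme, stood at 19.2, 18.5 and 17.4 FPKM in the 3 co-culture libraries, against 20.5, 20.2 and 20.6 FPKM in the 3 alone libraries. Its log2 change was -0.15 (limma adjusted p = 0.0239), a call that was lost without alone 2, alone 3, co-culture 2 or co-culture 3. Without alone 1 the list held 2 higher genes (Rps27a and Ubb, both of which encode ubiquitin) and 3 lower genes.

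Genes that carry substrates to the proteasome included some that rose and some that fell: of 15 reported here, 2 rose (13.3%) and 3 fell (20%), shares near the 13.9% and 17.9% of all tested genes. Zfand5, a zinc finger protein that binds the proteasome and stimulates it, stood at 68.5, 62.7 and 63.9 FPKM in the 3 co-culture libraries, against 50.04, 48.8 and 52.8 FPKM in the 3 alone libraries. Its groups were clearly separate, with a log2 change of 0.36 (SE 0.044, limma adjusted p = 2.21e-04). Ubqln1, a shuttle that links ubiquitin chains to the cap, stood at 31.1, 31.2 and 31.5 FPKM in the 3 co-culture libraries, against 37.3, 37.1 and 36.5 FPKM in the 3 alone libraries, a log2 change of -0.23 (limma adjusted p = 5.56e-04). Ubqln4, a relative of Ubqln1, stood at 6.96, 7.86 and 7.41 FPKM in the 3 co-culture libraries, against 8.49, 10.00 and 10.1 FPKM in the 3 alone libraries, a log2 change of -0.32 (limma adjusted p = 0.00490). The shuttle Rad23b also fell, with a log2 change of -0.16 (limma adjusted p = 0.00909). Ufd1, a cofactor of the Vcp segregase, had a log2 change of 0.13 (limma adjusted p = 0.0341), which was lost without alone 2, alone 3, co-culture 2 or co-culture 3.

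Other multi-subunit complexes are given for scale, beside 17.9% lower and 13.9% higher among all tested genes. Of the 8 subunits of the CCT chaperonin, 4 fell and 0 rose by limma (none higher at an unadjusted p below 0.05 or by voom), with a median log2 change of -0.10. Without co-culture 1 or co-culture 3 this count was 2. Of the 9 COP9 signalosome subunits, whose architecture resembles the lid, 0 were called by limma or voom, with 1 higher and 2 lower at an unadjusted p below 0.05 and a median of 0.029, which was below 0 without alone 2 or alone 3. Of the 14 tested eIF3 subunits, which share that architecture, 2 rose and 3 fell, with a median of 0.048, and leaving out single libraries gave 0 to 6 higher genes. The proteasome's 6 of 46 lay between these complexes, and no difference between the lists was tested.

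**Figure D5:**
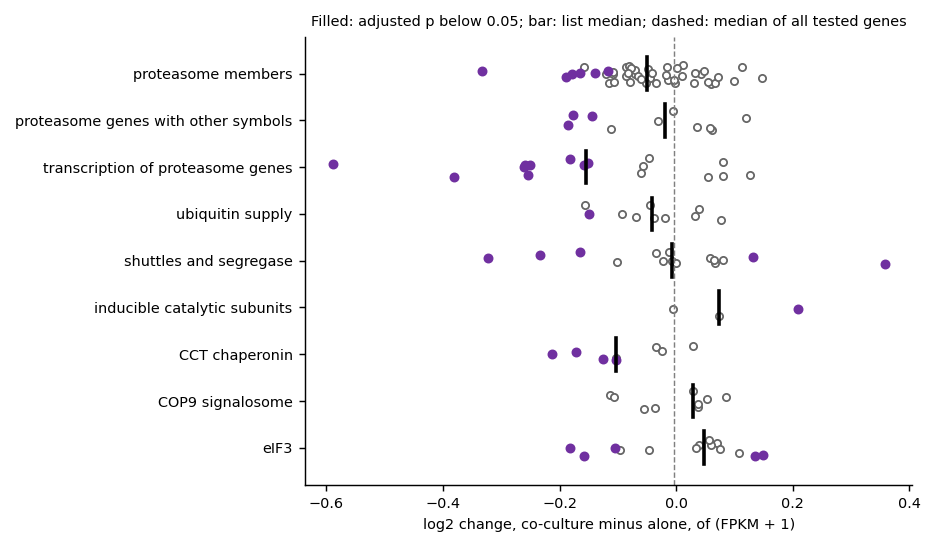
Log2 change (co-culture minus alone) of each gene of the proteasome and of related lists, on the log2(FPKM + 1) scale; filled points have an adjusted p below 0.05, bars are list medians and the dashed line is the median of all tested genes (-0.0037). The transcription list is farthest left (median -0.15, with Nfe2l2 at -0.59), and Zfand5 (0.36) lies farthest right.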

How the data were processed

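RNA of 6 libraries, 3 per group, was analysed from the gene-level FPKM values that the authors deposited; fastp, HISAT2 and HTSeq with mm10 are named in the submitters' processing notes, without versions, and the strand setting is not given in the sources used here. Whole reads per gene were recovered from the FPKM steps: all 21436 genes resolved (tolerance 1e-06), 99.2% of the 12045 genes with 100 or more reads gave a whole length (within 0.001 bp), and library totals were 29603755 to 38357563 reads; voom on these reads called 1508 genes higher and 1898 lower. The 10055 genes averaging 1 FPKM or more were tested with limma 3.58.1 in R 4.3.3 (trend, log2(FPKM + 1)), which understates changes of low genes. Adjusted p-values are Benjamini-Hochberg over all tested genes, at 0.05. The procedure was tested on simulated data.

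The genes, lists and tests were chosen with earlier results of these data known. In each role, up to 3 called genes, the most abundant gene and any gene called against the class median were taken by rule. The rule also took up to 3 called genes of each related list, and Nfe2l1, Adrm1, Pomp, Psmb8, Psmb9 and Psmb10 whatever their call. Values per library are given for these genes, except Akirin2, Psme3ip1 and the genes of the CCT and eIF3 lists. Psma3, Psmd5, Psme4 and other genes named beside them were chosen after their values were seen. Alternatives changed the pseudocount, filter, scaling, variance model, threshold, block and libraries. Promoters come from RefSeq (GRCm38.p6). Promoters of Psmb1, Psmb2, Psmb7, Psmc3, Psmd3, Psmd7 and Psmg2 were not used here. Some genes of the related lists are not reported here and are left out of the counts of those lists.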

Additional observations from a re-analysis of the deposited data

How the results depend on the processing

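The median log2 change of the 46 proteasome genes stayed below 0 in each alternative fit, from -0.0637 (without alone 2) to -0.0242 (without alone 1) when single libraries were left out. The count of higher genes, 0 in the reported fit, was 1 with TPM scaling (Psmb1), 3 with quantile scaling (Psma2, Psma6 and Psmb1), 1 with array weights, 1 with voom on recovered reads (Psme4), and 0 to 3 without single libraries. The count of lower genes, 6 in the reported fit, was 1 with no filter (Psme3), 2 with quantile scaling (Psmd14 and Psme3), 3 with no variance trend, 8 with median-ratio or TPM scaling, 7 at a mean of 5 FPKM or more, 1 at an adjusted p of 0.01 (Psmd14), and 2 to 6 without single libraries. With the replicate block 5 genes were lower, Psmc2 being lost, and 12.5% and 16.3% of all genes were higher and lower. The labels do not say whether same-numbered libraries were paired. Correlations of same-numbered deviations were -0.0444, 0.109 and -0.0829, which with so few libraries cannot decide it. Without a filter, Psmd14 had a limma adjusted p of 0.0559. The transcription list had 6 to 8 lower genes without single libraries, 6 with no filter and 5 at 0.01. For median-ratio scaling, the filter at 5 FPKM and the threshold of 0.01, the shares of all tested genes are not given here. Counts at these settings, for the 46 genes and for the transcription list, therefore cannot be set beside the whole table. Of 23 called genes named by rule, 9 kept their call under each of the 18 alternatives, Adrm1 and Nfe2l1 among them. None of the 6 genes called among the 46 did so: Psmd14 kept its call in 17 alternatives, Psme3 in 15, Psmb5, Psme2b and Psmg3 in 10 each, and Psmc2 in 7. The cause of these shifts was not tested. Of the 46 genes, 42 had at least 500 reads in every library, and the fewest were 180 (Psmg3).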

Other observations

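Other families of the ubiquitin system were gathered by symbol after the data were seen. Of 31 tested ubiquitin-conjugating enzymes (Ube2), 12 fell in co-culture (38.7%, beside 17.9% of all tested genes) and 0 rose (beside 13.9%) by limma with Benjamini-Hochberg adjustment; none was higher at an unadjusted p below 0.05 or by voom, and 9 to 10 fell without single libraries. Ube2s, which extends chains for the anaphase-promoting complex, averaged 36.8 ± 0.793 FPKM in co-culture and 49.4 ± 0.956 FPKM alone (SD, n = 3 each; limma adjusted p = 1.61e-05). Ube2c, which starts those chains, averaged 14.1 ± 0.472 FPKM in co-culture and 19.6 ± 0.633 FPKM alone (limma adjusted p = 3.71e-05). Ube2f, which loads the ubiquitin-like protein NEDD8 onto cullins, averaged 7.29 ± 0.448 FPKM in co-culture and 10.5 ± 0.496 FPKM alone (limma adjusted p = 1.54e-04). Of 42 tested Usp deubiquitinases, 4 rose (9.52%) and 8 fell (19.05%), and of 46 F-box proteins 4 rose (8.70%) and 5 fell (10.9%), beside the same 13.9% and 17.9%. Of 7 cullins 1 rose (Cul7) and 1 fell (Cul2). Fbxo32, the muscle atrophy ligase subunit atrogin-1, averaged 1.46 ± 0.0473 FPKM in co-culture and 0.799 ± 0.0775 FPKM alone (limma adjusted p = 5.29e-04). Its alone mean lay below the filter level of 1 FPKM, and it was tested because its mean over all 6 libraries was 1.13 FPKM. With no filter on low values its limma adjusted p was 0.00729. Fbxl14 averaged 6.05 ± 0.211 FPKM in co-culture and 8.01 ± 0.191 FPKM alone (limma adjusted p = 3.99e-04).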
